A study of Rattus norvegicus with 10 samples.

Results

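Dopamine is made from tyrosine and packed into vesicles by a short chain of proteins whose transcripts were followed here across 5 regions of the rat brain. The chain was taken as 5 genes: Th and Ddc, which encode the synthetic enzymes, Slc18a2 and Slc6a3, which encode the vesicular and the plasma membrane transporter, and Aldh1a1, which encodes an aldehyde dehydrogenase of a subset of dopamine neurons. Its members were all probe sets that the array annotation gave to one of these symbols and to no other, which were 7 probe sets of 8740 that were not controls, and 7006 of those 8740 carried a single symbol. All 5 genes were on the array.

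Tissue came from the ventral tegmental area (VTA), the amygdala (AMY), the caudate putamen (CPU), the nucleus accumbens (NAc) and the prefrontal cortex (PFC). There was 1 array per region for rats given cocaine and 1 for rats given saline, 10 arrays in all, and the 4 regions other than the VTA are called the forebrain regions below. The labels state neither the strain, age, dose, route and duration of treatment nor whether a sample pooled several animals. The values were dChip expression indices, a linear intensity computed from the probes of each probe set, so indices of different probe sets are not compared as levels of RNA.

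Dopamine neurons of the ventral midbrain have their cell bodies in the VTA and the neighbouring substantia nigra, and their axons reach the striatum, the amygdala and the cortex. Tyrosine hydroxylase, the product of Th, makes L-DOPA and is the rate-limiting step, and aromatic L-amino acid decarboxylase, the product of Ddc, turns L-DOPA into dopamine. The vesicular monoamine transporter loads dopamine into vesicles, and the dopamine transporter, the product of Slc6a3, takes it back up from the synapse and is a main target of cocaine. Most of the transcripts stay in the cell body, so the RNA of a region with dopamine terminals need not contain them. In bulk tissue, fewer cells of a type and less RNA per cell cannot be told apart.

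The start sites of these genes differ in sequence, and the stretches that set Th and Slc18a2 apart from the other members are shown first. RefSeq sequence of the GRCr8 build was available for all 5 genes as windows of 300 bases (3 of them for Ddc), from 250 before to 50 after the annotated start. The palindrome TGACGTCA, the cyclic AMP response element, was found in the windows of Th and Slc18a2 and in none of the other 3 genes, against 1.83% of 33469 windows of all genes. In Th it lay at positions -69 to -62 from the start, and in Slc18a2 at -52 to -45. Both stretches of 30 bases are printed 5′ to 3′ on the gene's strand with the element in capitals.
Th, chr1:207508269-207508298, minus strand: cagaggggcttTGACGTCAgcctggccttt
Slc18a2, chr1:268399958-268399987, plus strand: agtgctatccgTGACGTCAgagccggactg

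The Slc6a3 window lacked the element and held 3 GC boxes, as the Slc18a2 window did. This motif, GGGCGG on either strand, was found in 33.1% of all windows. The 250 bases before the Slc6a3 start are given with the GC boxes in capitals. They were chosen because this transporter gene, by its tested probe set, gave the smallest VTA difference among the tested members.
Slc6a3, chr1:31578963-31579212, minus strand: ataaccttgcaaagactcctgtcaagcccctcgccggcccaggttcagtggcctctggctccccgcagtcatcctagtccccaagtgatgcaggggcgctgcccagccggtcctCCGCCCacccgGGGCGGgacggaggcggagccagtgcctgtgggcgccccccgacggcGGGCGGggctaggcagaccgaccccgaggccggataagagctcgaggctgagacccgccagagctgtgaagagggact

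The first of 3 Ddc windows, each at another annotated start, held a copy of AAAGGTCA, the response element of the NR4A nuclear receptors, read on the opposite strand at -73 to -66, a motif found in 1.43% of all windows. The AP-1 motif TGANTCA, in 7.33% of windows, was present in the Th window and in that Ddc window. The Aldh1a1 window held none of the motifs searched, which also included the homeodomain motif TAATCC (7.17% of windows). The guanine and cytosine content was 65.3% for Th, 68% for Slc6a3, 68.3% for Slc18a2 and 48.3% for Aldh1a1, against a median of 51.7% over all windows. These letters are a description of the windows, and binding was not measured.

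Some arrays stood together in a way their region labels do not give. Over the 4894 tested probe sets with a value on every array, the log2 values of the AMY saline array correlated with those of the PFC cocaine array at r = 0.965, and with those of the AMY cocaine array at r = 0.939. The AMY cocaine array in turn correlated with the PFC saline array at r = 0.967, and the 2 PFC arrays with each other at r = 0.951, so the AMY and PFC arrays ran more alike crosswise than within their regions. The VTA cocaine array correlated with the AMY saline array at r = 0.935, and the VTA saline array did so at r = 0.909, while the 2 VTA arrays correlated at r = 0.977. Among the 8 forebrain arrays, AMY saline and PFC cocaine gave the 2 highest values for 4 of the 7 member probe sets (Th, Ddc, 1 of Slc6a3 and 1 of Slc18a2), as they did for 26.9% of all probe sets. They gave the 2 lowest values for Aldh1a1 and the other Slc6a3 probe set, as they did for 12.8% of all. The part of this pattern in the differences below was not tested, and the differences between the VTA and the mean forebrain are given with and without the AMY saline and PFC cocaine arrays.

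**Figure D1:**
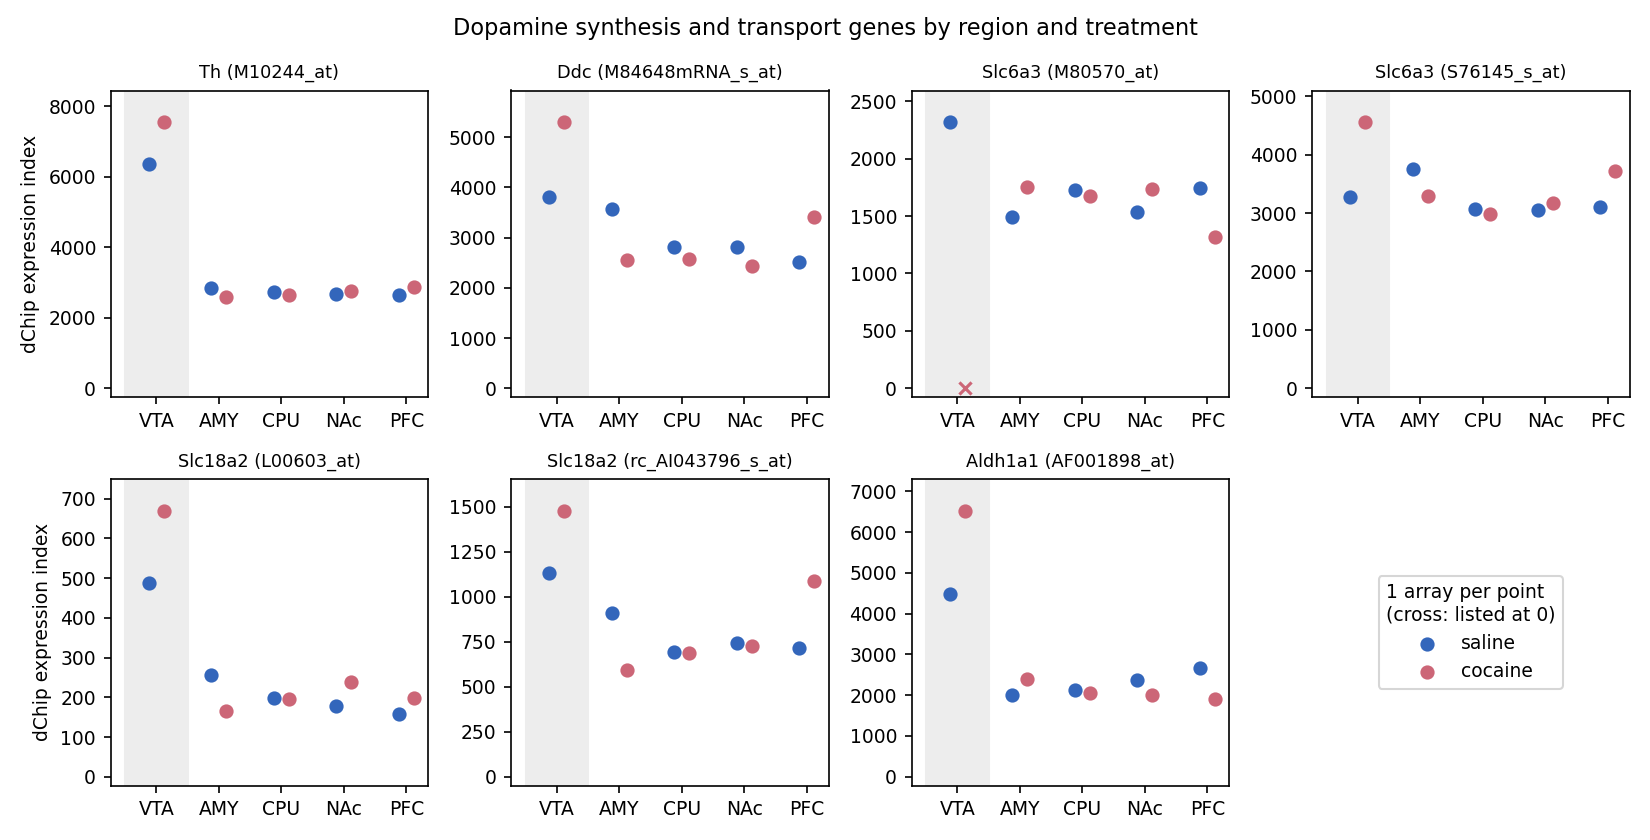
Expression index of the 7 member probe sets on each of the 10 arrays, on a linear axis that starts at 0, with saline and cocaine arrays of each region as separate points. The 2 VTA points lie above all 8 forebrain points for Th, Ddc, Aldh1a1 and both Slc18a2 probe sets, and an exact 0 in the VTA cocaine sample of 1 Slc6a3 probe set marks a value that was not obtained.

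Transcripts of the first enzyme and of the aldehyde dehydrogenase were more abundant in the VTA, those of the dopamine transporter did not pass the test, and those of the vesicular transporter read too low for it. Th was 2.55-fold and Aldh1a1 2.48-fold higher in the VTA than in the mean of the 4 forebrain regions, and both passed the test. Ddc was 1.6-fold higher and fell just short of the threshold. For 5 of the 7 probe sets both VTA arrays exceeded all 8 forebrain arrays. One of the others, an Slc6a3 probe set listed at 0 on the VTA cocaine array, could not meet this rule. The rule held for 10% of all probe sets with 10 values and for 13.2% of those tested.

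Th (M10244_at) had an index of 6363 in the VTA of saline-treated rats and of 7544 in that of cocaine-treated rats. In the forebrain, it read 2848.5 (saline) and 2599 (cocaine) in the AMY, 2739 and 2632 in the CPU, 2670 and 2746 in the NAc, and 2646 and 2884 in the PFC. The lower VTA array was thus 2.21-fold above the highest forebrain array, and the 8 forebrain values formed a flat level with a coefficient of variation of 3.8%. The mean was 6954 ± 835 (SD, n = 2) in the VTA, and the 4 forebrain means lay between 2686 and 2765. Those 4 means differed by less than the SD of the AMY pair (177) or of the PFC pair (168), so they were not put in order. Here and below, the SD of a region is taken over its saline and its cocaine array. It therefore includes any treatment difference and is not a spread of replicates.

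Fitted across all tested probe sets with limma, with treatment as a second term, Th was higher in the VTA by 1.35 ± 0.09 (log2, SE; adjusted p = 0.000133). Of the 5232 probe sets in that fit, 11.1% were called, 7.84% higher and 3.23% lower, and 0.688% were called with a difference of at least 1 on the log2 scale, among them Th. After quantile normalization the calls split into 228 higher and 190 lower, against 410 and 169, and Th stayed past the threshold at 1.28. The difference was 1.35 against AMY, 1.37 against CPU, 1.36 against NAc and 1.33 against PFC, each ± 0.12 (SE). All 4 passed the limma test, with adjusted p-values between 0.0003808 and 0.0008087, and these comparisons share the 2 VTA arrays. The shares of probe sets called higher in them were 3.92% for AMY, 4.87% for CPU, 2.03% for NAc and 8.81% for PFC. Without the AMY saline and PFC cocaine arrays the Th difference was 1.38, and without the VTA cocaine array in addition it was 1.25.

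Ddc (M84648mRNA_s_at) read 3809 and 5296 in the VTA of saline- and cocaine-treated rats. Its forebrain values were 3578 and 2552 in the AMY, 2808 and 2567 in the CPU, 2817 and 2434 in the NAc, and 2513 and 3412 in the PFC. Both VTA values were the highest of the 10, but the VTA saline value exceeded the AMY saline value by only 1.06-fold. The forebrain spread was wider than that of Th, with a coefficient of variation of 15.2%, and its 2 highest values were those of the AMY saline and PFC cocaine arrays. The 4 forebrain means, 2625 to 3065, lay within the SD of the AMY pair (725).

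The fitted Ddc difference was 0.68 ± 0.18 (log2, SE; limma adjusted p = 0.05412), and none of the 4 single-region comparisons passed (0.57 against AMY, 0.74 against CPU, 0.78 against NAc and 0.62 against PFC, each ± 0.23 SE). Without the AMY saline and PFC cocaine arrays it was 0.79 and passed (limma adjusted p = 0.0003975). In that fit 713 of 5197 probe sets were called higher, against 410 of 5232 with all arrays. The Ddc difference also passed when AMY saline, PFC cocaine or AMY cocaine alone was left out, where 571, 369 and 716 probe sets were called higher. Leaving out AMY saline brought all 4 single-region comparisons of Ddc past the threshold. In these comparisons 288 to 761 of 5206 probe sets were called higher, against 106 to 461 of 5232 with all arrays. Leaving out AMY cocaine did so for those with CPU, NAc and PFC, where 281 to 743 of 5175 were called higher. Without the VTA cocaine array alone the Ddc difference was 0.39, and without AMY saline, PFC cocaine and VTA cocaine it was 0.47. Both are given as effect sizes only, because each of these fits holds 1 VTA array. The spread of the fit without all 3 arrays rests on the CPU and NAc pairs. Against the saline arrays alone, the VTA saline value of Ddc was 1.3-fold the mean of the 4 forebrain values, and of Th 2.33-fold.

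Slc18a2, whose product loads monoamines into vesicles, was represented by a pair of probe sets at the low end of the scale. The first (L00603_at) read 488 and 669 in the VTA of saline- and cocaine-treated rats, and between 157 and 256 on the 8 forebrain arrays. Both VTA values lay above all 8 forebrain values, with a VTA mean of 579 ± 128 (SD, n = 2), and the 4 forebrain means, 178 to 211, lay within the SD of the AMY pair (63.9). All 10 values lay below 1028, the 20th percentile of values above 0, which was the floor of the main analysis, so no fold is given and this probe set was not tested there.

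The second Slc18a2 probe set (rc_AI043796_s_at) read 1131 and 1476 in the VTA. Its forebrain values ran from 592 to 1086, and the 2 highest were again the PFC cocaine and AMY saline arrays (1086 and 910). The VTA mean was 1.7-fold the forebrain mean, and the VTA saline value was 1.04-fold the PFC cocaine value, so the groups were separated by little. It was below the filter on mean index as well.

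An analysis with no filter or floor, on log2(index + 100), was added after the values had been seen, and placed these probe sets among all others. There the first Slc18a2 probe set was higher in the VTA by 1.18 ± 0.18 (log2 of index + 100, SE; limma adjusted p = 0.008244), where 4.45% of 8726 probe sets were called higher. It was also called against each forebrain region, by 1.13 against AMY, 1.18 against CPU, 1.13 against NAc and 1.28 against PFC, with limma adjusted p-values of 0.01684 to 0.04786. That call was lost without the VTA cocaine array, at 0.99 (limma adjusted p = 0.1914, where 0.506% of probe sets were called higher). Without the AMY saline and PFC cocaine arrays it was 1.26, and without all 3 arrays 1.13. The second gave 0.70 ± 0.19 and did not pass (limma adjusted p = 0.08113), and it passed at 0.84 without the AMY saline and PFC cocaine arrays (limma adjusted p = 0.001044, 8.07% called higher). Without all 3 arrays it was 0.65, in a fit that holds 1 VTA array and whose spread rests on the CPU and NAc pairs. Without the VTA cocaine array alone it was 0.52 (limma adjusted p = 0.7456). All 10 values of the first probe set were low enough that signal over background could not be judged. In that analysis Th (1.32) and Aldh1a1 (1.27) remained past the threshold, and Ddc (0.66) and Slc6a3 did not reach it.

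**Figure D2:**
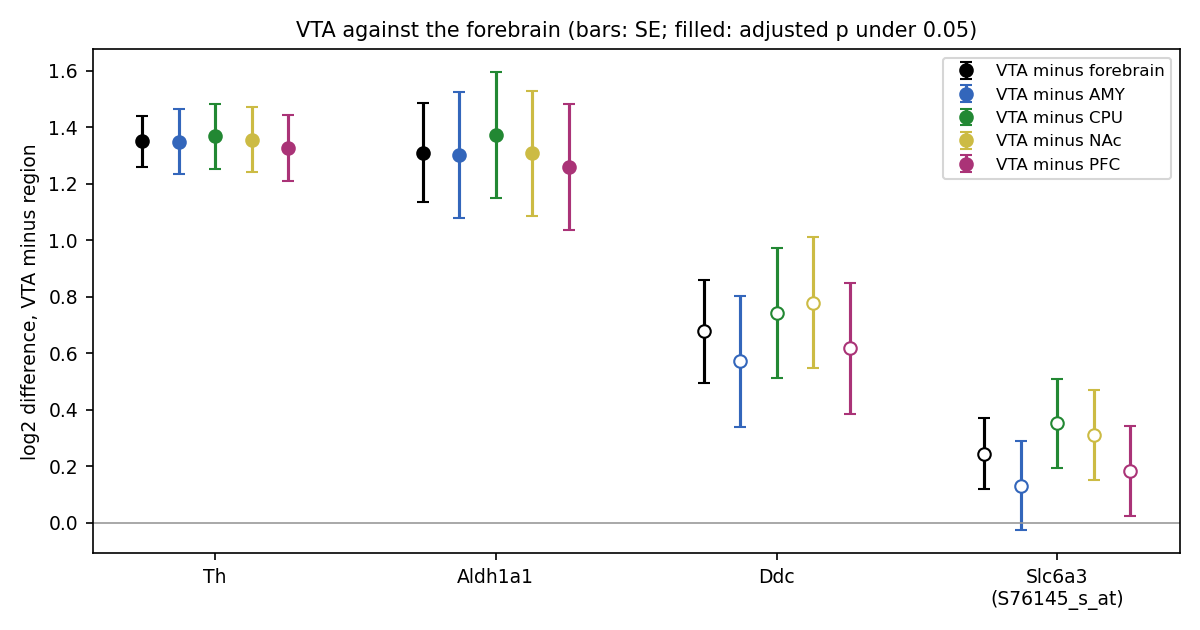
Log2 difference between the VTA and the mean of the 4 forebrain regions, and between the VTA and each of them, for the 4 tested member probe sets, with SE bars and filled points where the limma adjusted p was under 0.05. Th and Aldh1a1 lie near 1.3 in every comparison, Ddc between 0.57 and 0.78, and the tested Slc6a3 probe set between 0.13 and 0.35.

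Slc6a3, the gene of the dopamine transporter, gave by its tested probe set a smaller VTA difference than the other tested members. The brighter probe set (S76145_s_at) read 3268 in the VTA of saline-treated and 4552 in that of cocaine-treated rats. Its forebrain values were 3756 and 3299 in the AMY, 3068 and 2977 in the CPU, 3046 and 3176 in the NAc, and 3103 and 3716 in the PFC. Region means were 3910 ± 908 (SD, n = 2) in the VTA, 3528 ± 323 in the AMY, 3409 ± 434 in the PFC, 3111 ± 91.8 in the NAc and 3023 ± 64.3 in the CPU, and the VTA and AMY means, next to each other in that order, differed by less than the VTA SD. The VTA cocaine value was the highest of the 10, whereas the VTA saline value lay within the forebrain range and was 1.01-fold the mean of the 4 forebrain saline values. The fitted difference was 0.24 ± 0.13 (log2, SE; limma adjusted p = 0.3402), with 0.02 without the VTA cocaine array and 0.47 without the VTA saline array. Without the AMY saline and PFC cocaine arrays it was 0.30 (limma adjusted p = 0.06047), and without the VTA cocaine array in addition 0.07.

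The other Slc6a3 probe set (M80570_at) read 2316 in the VTA of saline-treated rats, above all 8 forebrain values, which ran from 1319 to 1751. Against the 4 forebrain saline arrays the VTA saline value was 1.42-fold higher. On the VTA cocaine array it was listed as an exact 0, as 120 probe sets were on that array, and zeros were treated as values not obtained. It was below the filter on mean index, and in the analysis with no filter its difference was 0.49 ± 0.18 on 9 arrays, which drop the VTA cocaine array (limma adjusted p = 0.2471). That difference was 0.45 without the AMY saline and PFC cocaine arrays, and also 0.45 without the VTA cocaine array in addition. In each of these fits the VTA rests on 1 value of this probe set. The 2 Slc6a3 probe sets thus read differently on the VTA saline array, above the forebrain range for one and within it for the other.

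Aldh1a1 (AF001898_at), whose product oxidises retinaldehyde and dopamine-derived aldehydes, read 4477 and 6519 in the VTA of saline- and cocaine-treated rats. Its forebrain values were 2012 and 2390 in the AMY, 2123 and 2050 in the CPU, 2365 and 2016 in the NAc, and 2669 and 1910 in the PFC. The lower VTA value was 1.68-fold above the highest forebrain value, which was the PFC saline array. The VTA mean was 5498 ± 1444 (SD, n = 2), and the forebrain means lay between 2087 and 2289, closer together than the SD of the NAc pair (247).

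The fitted Aldh1a1 difference was 1.31 ± 0.18 (log2, SE; limma adjusted p = 0.003024), which also placed it among the 0.688% of probe sets called with a difference of at least 1. It passed against AMY (1.30), CPU (1.37), NAc (1.31) and PFC (1.26), each ± 0.22 SE, with limma adjusted p-values of 0.00875 to 0.01707. Without the VTA cocaine array the difference was 0.97 and did not pass (limma adjusted p = 0.06789), and 0 of the 4 single-region comparisons passed. The NAc call was also lost without any 1 of the CPU or NAc arrays, the CPU call without either CPU array, and the PFC call without the PFC cocaine array. Without the AMY saline and PFC cocaine arrays it was 1.22, and without the VTA cocaine array in addition 0.88.

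The members varied together to different degrees, which is given as a description since the 10 points share their arrays and 2 of them are VTA arrays. Over the 10 arrays, log2 values of Th correlated with those of the first Slc18a2 probe set at r = 0.965, of Aldh1a1 at r = 0.943 and of Ddc at r = 0.858. Over the 8 forebrain arrays alone, Th correlated with the second Slc18a2 probe set at r = 0.909 and with Ddc at r = 0.826. Aldh1a1 ran the other way in the forebrain, at r = -0.719 with Th and -0.795 with the first Slc18a2 probe set. Ddc and the brighter Slc6a3 probe set correlated at r = 0.83 there, and both were highest on the AMY saline and PFC cocaine arrays.

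Among 4051 tested probe sets of other single symbols, the 5 whose log2 values ran most like Th over the 10 arrays were Fdps (r = 0.973), Gpx3 (0.968), Calb2 (0.960), Prph (0.960) and Fdft1 (0.959). Fdps and Fdft1 encode enzymes of the sterol pathway, Gpx3 a glutathione peroxidase, Calb2 the calcium-binding protein calretinin and Prph the neuronal intermediate filament peripherin. Aldh1a1 ran most like RT1-A (0.975), a class I histocompatibility gene, Insig1 (0.965), a regulator of sterol synthesis, Fdps (0.958), Cd63 (0.950) and Calb2 (0.948), so Fdps and Calb2 were on both lists. Ddc ran most like Fbxo2 (0.956), Mag (0.939), which encodes a myelin protein, Fdft1 (0.931), Cyp7b1 (0.927) and Gas5 (0.926). The brighter Slc6a3 probe set ran most like Gstt1 (0.933), Haao (0.931), Uck2 (0.929), Fbxo2 (0.927) and Rbck1 (0.9201).

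The genes around dopamine synthesis were then counted, each gene by its probe set of highest mean index, beside the 7.84% of tested probe sets called higher and the 3.23% called lower. For Akr1b1, Prkaca, Stx1a and Rbp4 the choice of probe set decided the call, and their other probe sets are given below. Of the members, 2 of the 4 tested were called higher, with a median difference of 0.99 on the log2 scale against 0.02 over all tested probe sets. In the list for tetrahydrobiopterin, the cofactor of tyrosine hydroxylase, 1 of 3 tested genes was higher. This was Qdpr, the enzyme that regenerates the cofactor, with 11196.5 and 13176 in the VTA and 3590 to 7173 in the forebrain (2.34-fold, log2 1.23 ± 0.15, limma adjusted p = 0.001875). Gch1, the first enzyme of cofactor synthesis, gave 0.02.

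Of 6 dopamine breakdown genes tested, 1 was higher, Maoa, which encodes a monoamine oxidase (1.52-fold, log2 0.61 ± 0.11, limma adjusted p = 0.01128). Maob, the other monoamine oxidase, gave 0.54 and did not pass (limma adjusted p = 0.1795). Akr1b1, which encodes aldose reductase, gave 0.09 by the probe set counted and 0.58 by another, which passed (limma adjusted p = 0.01267), so 2 of the 6 genes were higher by any probe set. Among the genes of other monoamines, 0 of 2 tested genes for noradrenaline and adrenaline and 0 of 3 for serotonin and histamine were called, and the members of these lists with the widest differences were Pnmt at 0.07 and Hdc at 0.21. Transcription factors of dopamine neurons were thinly covered, with 2 of 13 tested, and neither was called. These were Nr4a2 at -0.09, fitted on 8 arrays because 2 read 0, and Pitx3 at 0.00.

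Of 12 tested genes described in midbrain dopamine neurons, 3 were higher and 2 lower in the VTA. Calb2 was 4.67-fold higher (log2 2.22 ± 0.11, limma adjusted p = 5.232e-05), Calb1, which encodes calbindin, differed by 0.65 (limma adjusted p = 0.0406) and Park7, which encodes a protein of the oxidative stress response, by 0.51 (limma adjusted p = 0.006255). Calb1 read 8698 in the VTA with saline and 5811 with cocaine, and the cocaine value lay within its forebrain range of 3196 to 6867. Cck, which encodes cholecystokinin and is abundant in cortex, differed by -1.24 (limma adjusted p = 0.008231), and Drd2, the dopamine receptor gene that striatal neurons also use, by -0.56 (limma adjusted p = 0.0202). Among 5 tested partners of the member proteins, Prkaca, a catalytic subunit of protein kinase A, was higher by 0.93 (limma adjusted p = 0.01575), though another probe set of the gene gave 0.09 and did not pass. Ywhaz, of the 14-3-3 family that binds tyrosine hydroxylase, differed by -0.60 (limma adjusted p = 0.01766). Stx1a, which encodes the synaptic protein syntaxin 1A, gave -0.23 by the probe set counted and -0.81 by another, which passed (limma adjusted p = 0.00993). Of 10 tested genes of retinoid metabolism and response, 0 were called by the probe sets counted, where the widest difference was -0.14 for Cyp26b1. Rbp4, which encodes a retinol carrier, gave -0.03 there, while both of its other probe sets were called lower, at -0.85 (limma adjusted p = 0.02088) and -0.44 (limma adjusted p = 0.0303).

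**Figure D3:**
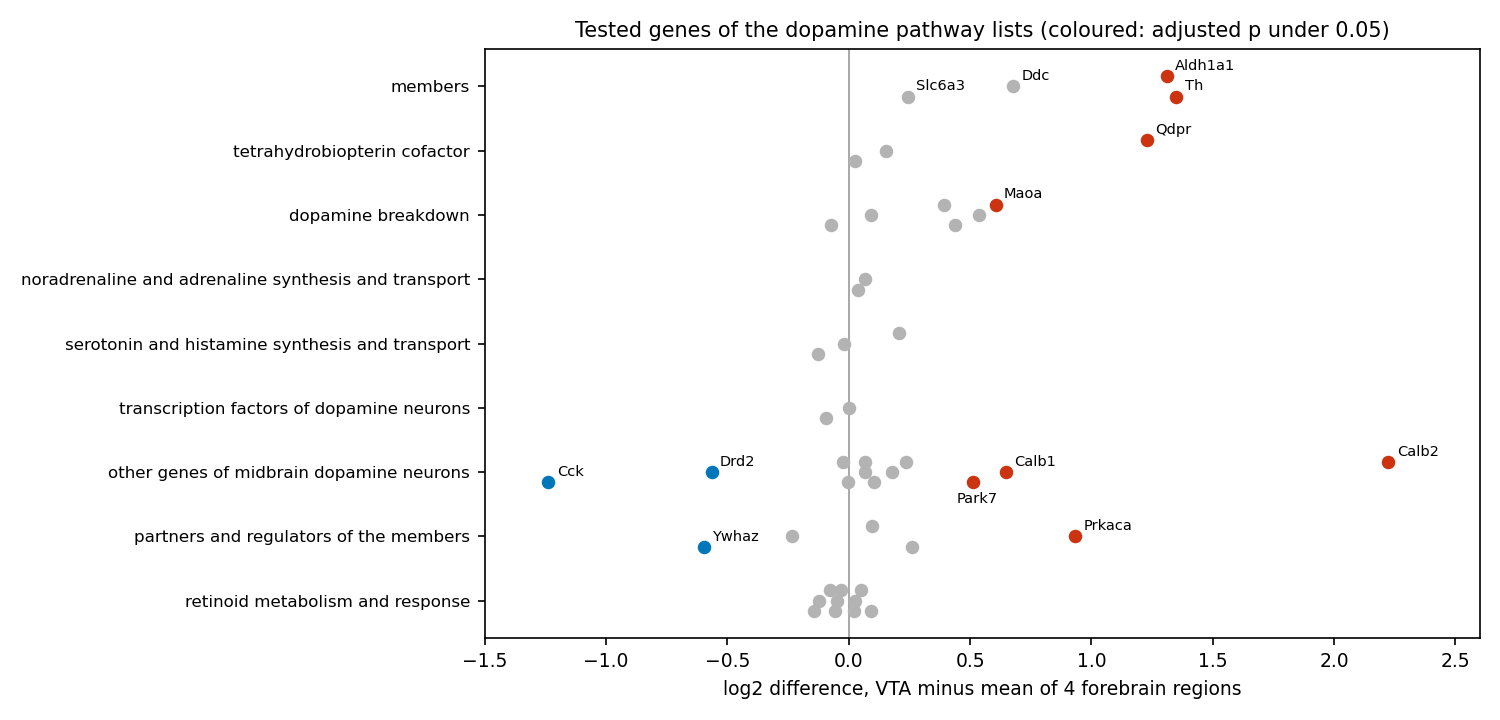
Log2 difference between the VTA and the mean forebrain for the tested genes of each list, 1 point per gene, with genes past the threshold coloured and labelled and the members all labelled. Th, Aldh1a1, Qdpr and Calb2 lie above 1, and the lists for noradrenaline, serotonin, transcription factors and retinoids have no gene called by the probe set plotted.

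Markers of other cells differed between the VTA and the forebrain arrays as well, and their part in the differences of the members was not tested. Of 8 tested oligodendrocyte markers 4 were higher in the VTA, with a summed index of 130773 and 147203 in the VTA and 77206 to 149657 in the forebrain. Among those 4, Mag was called by the probe set counted but not by another (limma adjusted p = 0.2861). Of 6 tested astrocyte markers 2 were higher, Clu (1.47-fold) and S100b (1.26-fold by 1 of its probe sets), with sums of 147753 and 154491 against 119822 to 148834. Aldoc was not called by the probe set counted and was 1.52-fold higher by another (limma adjusted p = 0.00948), so 3 of the 6 were higher by any probe set. Of 4 tested choroid plexus and meningeal markers 1 was higher, Enpp2 (1.51-fold, limma adjusted p = 0.0336), with sums of 29971 and 31976 against 24907 to 63174. The VTA values of Enpp2, 6960 and 7144, lay within its forebrain range of 2802 to 8860. Ttr had the widest difference of that list, in the other direction, and was not called (log2 -1.12, limma adjusted p = 0.07408). Of 8 tested markers of hypothalamic neurons 2 were higher, with sums of 73470 and 66265 against 30158 to 51533 in the forebrain. The hypocretin gene Hcrt led them, at 23627 in the VTA of saline-treated and 6808 in that of cocaine-treated rats, against 2738 to 3620 in the forebrain (4.19-fold, limma adjusted p = 0.007935). Pmch, another defining gene of the hypothalamus, was listed at 0 on both VTA arrays, and Oxt and Gal on the VTA saline array. Zeros counted as 0 in the marker sums. The VTA saline sum of hypothalamic markers thus lacks Oxt and Gal, which read 5087 and 5719 with cocaine, and the 2 VTA sums cover different genes. A forebrain oligodendrocyte sum lacks a marker in the same way. Markers of serotonin and noradrenaline neurons, which also use Ddc and Slc18a2, gave 0 of 2 called in each list. Their sums were 9364 and 9498 for serotonin (forebrain 9514 to 11103) and 4580 and 4899 for noradrenaline (forebrain 4402 to 4974). Of 7 striatal markers 6 were lower in the VTA than in the mean of the 4 forebrain regions. Their sums of 24130 and 25110.5 in the VTA lay within the forebrain range of 22118 to 95328. Of 2 cortical markers 1 was lower (Nrgn, a difference of -2.02 on the log2 scale), with sums of 10882 and 11964 against 19640 to 49013.

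With cocaine, all 6 member probe sets that had a value on both VTA arrays read higher than with saline, by less than 1.5-fold each, and the difference rests on 1 array against 1 with no replicate. Aldh1a1 was 1.46-fold, Ddc and the brighter Slc6a3 probe set 1.39-fold each, the Slc18a2 probe sets 1.37-fold and 1.3-fold, and Th 1.19-fold the saline value. The 1.37-fold reading of Slc18a2 is a ratio of values under the floor, and with the floor applied it is 0 on the log2 scale. Of 5142 tested probe sets, 57.5% read higher with cocaine in the VTA, as did 57.6% of all probe sets. A change of at least 1.5-fold was seen for 0.895% upward and 1.65% in either direction, and for 0 of the members.

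The member ratios lay in the upper part of the distribution. The median log2 ratio of the tested probe sets was 0.03 and the quartiles were -0.09 and 0.15. Aldh1a1 was at 0.54, a ratio that 1.19% of the tested probe sets reached. Ddc was at 0.48, reached by 1.79%, and the brighter Slc6a3 probe set also at 0.48, reached by 1.75%. The Slc18a2 probe sets were at 0.45 and 0.38, reached by 2.08% and 3.7%, and Th was at 0.25, reached by 11.9%. Neither Slc18a2 probe set was itself among the tested ones. VTA ratios spread more widely over all probe sets (SD 0.28) than over the tested ones (SD 0.21), so these 2 shares are not like for like. Scaling the arrays to a common median lowered the 4 tested ratios to 0.20 for Th, 0.43 for Ddc, 0.43 for Slc6a3 and 0.49 for Aldh1a1, all still above 0.

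**Figure D4:**
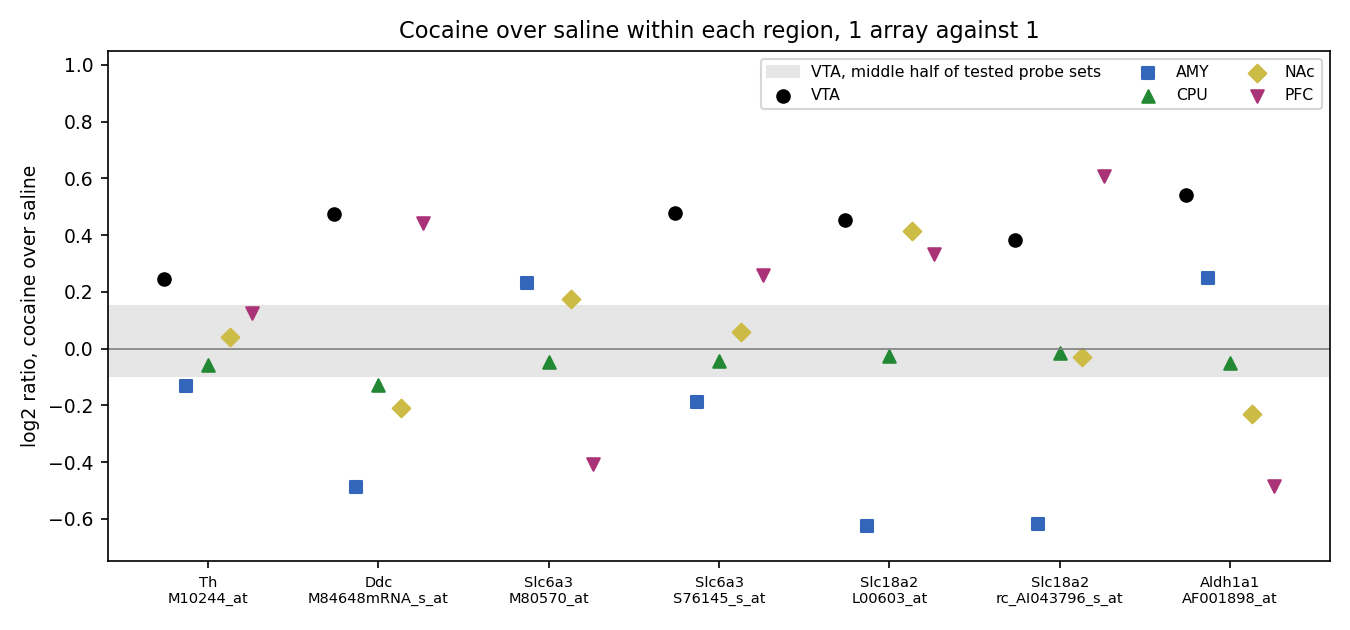
Log2 ratio of cocaine over saline for the member probe sets in each of the 5 regions, 1 array against 1 in each, with a grey band for the middle quartiles of the VTA ratios of tested probe sets. VTA points lie between 0.25 and 0.54, CPU points close to 0, and AMY and PFC points spread from -0.63 to 0.61 with opposite signs in these 2 regions for all 7 probe sets.

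The forebrain ratios of the same probe sets spread to both sides of 0. In the AMY, the log2 ratio was -0.13 for Th, -0.49 for Ddc, -0.63 and -0.62 for Slc18a2 and -0.19 for the brighter Slc6a3 probe set, against 0.25 for Aldh1a1. In the PFC, it was 0.12 for Th, 0.44 for Ddc, 0.33 and 0.61 for Slc18a2 and 0.26 for that Slc6a3 probe set, against -0.48 for Aldh1a1. The 2 regions thus had opposite signs for every one of these 6 probe sets, and their arrays are those that ran alike crosswise (AMY saline with PFC cocaine, AMY cocaine with PFC saline), whose part in these ratios was not tested. In the CPU, the ratios of all 7 probe sets lay between -0.13 and -0.02, and in the NAc between -0.23 and 0.42. A pattern of higher with cocaine in the VTA and PFC and lower in the AMY held for 5 of the 6 probe sets, all but Aldh1a1, and for 35.1% of all probe sets. Over 4894 probe sets, the VTA ratios correlated with those of the PFC at r = 0.576 and with those of the AMY at r = -0.587.

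Over the 5 regions together, none of the 4 tested member probe sets differed with cocaine. The mean log2 difference was 0.04 ± 0.07 (SE) for Th, 0.02 ± 0.15 for Ddc, 0.11 ± 0.10 for Slc6a3 and 0.01 ± 0.14 for Aldh1a1, with a limma adjusted p of 0.9999 for each. In that fit limma called 0% of 5232 probe sets, and 1.32% had an unadjusted p under 0.05. Without either VTA array the estimate was below 0 for Th, Ddc and Aldh1a1.

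Whether cocaine acted on the members differently in the VTA and the forebrain was tested as an interaction. The VTA ratio exceeded the mean forebrain ratio by 0.25 ± 0.17 (log2, SE) for Th, 0.57 ± 0.33 for Ddc, 0.46 ± 0.20 for Slc6a3 and 0.67 ± 0.28 for Aldh1a1. None passed, with a limma adjusted p of 0.978 for each, and the unadjusted p was 0.04981 for Aldh1a1 and 0.06384 for Slc6a3. Limma called 0% of the 5136 probe sets in this fit, and 2.14% had an unadjusted p under 0.05. The fit left 3 residual degrees of freedom, with 1 VTA array per treatment.

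Other transcripts differed between the 2 VTA arrays beside the members. Hcrt read 23627 with saline and 6808 with cocaine, and the GABA neuron markers Sst and Gad1 read 9413 and 8527 with saline against 3638 and 4065 with cocaine. The summed GABA marker index was 28542 with saline and 21024 with cocaine, within or below a forebrain range of 27326 to 44568. Pvalb and Gad2, of the same list, read higher with cocaine, at 2298 with saline and 5166 with cocaine for Pvalb and at 3106 and 4906 for Gad2, so 2 of the 5 GABA markers had the higher value with cocaine. The oligodendrocyte sum was 130773 with saline and 147203 with cocaine, and the choroid plexus marker Ttr 4431 and 2310. The part of these differences in the higher member readings of the VTA cocaine array was not tested.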

How the data were processed

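RNA of 5 rat brain regions was measured on 1-colour arrays, 1 array per region and treatment. The deposited intensity of a probe set is its dChip expression index on a linear scale, per the labels. For dChip, the version, model and scaling were not given in the sources used here. All groups came from the labels. No label says that samples came from separate animals, so p-values measure only the spread between these samples, which may be technical.

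Of 8799 probe sets, 59 controls were left out. Symbols came from the platform annotation (1 symbol for 7006, several for 308, none for 1426), and the member symbols stood unchanged in the RefSeq gene table. Column medians ran from 2208 to 2310, so no scaling was applied. The 593 exact zeros were treated as not obtained, except in the marker sums, where they counted as 0. Values under the 20th percentile of values above 0 (index 1028) were raised to it before log2. The upper 60% by mean index (5244 probe sets) were tested, 5232 of them with a value in each region. Tests used limma 3.58.1 (R 4.3.3), a trend of the variance on intensity, region and treatment terms (4 residual degrees of freedom) and Benjamini-Hochberg adjustment at 0.05. The number of arrays limits the precision.

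The members, gene lists and tests were chosen with earlier results of these data known. Genes named are all member probe sets. From each pathway list they are the called genes, or at most the 4 with the widest VTA difference, or the widest where none was called. From each marker list the genes with the widest VTA difference and VTA cocaine ratio could be named, and Pmch, Oxt, Gal, Gad1, Gch1 and Maob were named after their values were seen. Genes with several probe sets are represented by that of highest mean index. Akr1b1, Stx1a, Rbp4, Gad2, S100b, Aldoc, Enpp2 and the marker Mag were also named after their values were seen. Alternatives changed the floor, filter, zeros, scaling, trend, terms and arrays used.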

Additional observations from a re-analysis of the deposited data

How the results depend on the processing

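In every alternative run, the Th difference between the VTA and the forebrain stayed past the threshold. The total of 579 probe sets called (410 higher, 169 lower) was 350 with no filter on low values, 880 without both AMY arrays, 355 without both CPU arrays, 994 without the AMY saline and PFC cocaine arrays and 926 without the VTA cocaine array in addition. It ran from 118 (without VTA cocaine) to 946 (without AMY cocaine) when 1 array was left out, and quantile normalization gave 228 higher and 190 lower. Leaving out 1 array, the Ddc difference ran from 0.39 to 0.96 and the Aldh1a1 difference from 0.97 to 1.65. Ddc passed with median scaling (0.65), with no treatment term (0.68), without both AMY (0.71) or both PFC arrays (0.70), and without the AMY saline and PFC cocaine arrays (0.79). Without these and VTA cocaine the Ddc difference was 0.47, given as an effect size only because that fit holds 1 VTA array. The cause of these shifts was not tested. In this section, no filter means that only the filter on mean index was dropped and the floor was kept. Against single regions, 329 probe sets were called for AMY (149 with no filter, 215 with zeros raised to the floor, 86 to 583 leaving out 1 array), 398 for CPU (109 to 713), 223 for NAc (114 with no filter, 148 with zeros raised, 36 to 468) and 591 for PFC (302 with no filter, 177 to 985). The brighter Slc6a3 probe set changed sign against AMY (-0.10 to 0.36) and PFC (-0.0438 to 0.41) when 1 array was left out. The 4 Aldh1a1 calls against single regions were lost without VTA cocaine and with no filter on low values where the floor was kept. All 4 passed in the added analysis with neither filter nor floor (limma adjusted p of 0.01365 to 0.02651). The cocaine difference across regions changed sign when 1 array was left out for Th (-0.0065 to 0.088), Ddc (-0.0966 to 0.144) and Aldh1a1 (-0.1287 to 0.1275), and with median scaling for Aldh1a1 (-7e-04). The interaction had 0 calls, against 35 with no filter and 57 with zeros raised to the floor. At least 1.5-fold in the VTA with cocaine, 85 probe sets (46 higher) became 177 with zeros raised to the floor, and 84 (31 higher) with median scaling. No paired analysis was possible because the labels give no replicate numbers and each group has 1 array, so region entered as a term. Leaving out a VTA array leaves no interaction estimate. Signal over background could not be judged beyond the zeros and the floor, which limits Slc18a2 in particular.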
